A study of Rattus norvegicus with 6 samples.

Results

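The SR splicing factors studied here are the 10 genes Srsf1, Srsf2, Srsf3, Srsf4, Srsf5, Srsf6, Srsf7, Srsf9, Srsf10 and Srsf11. They were found by symbol, as 10 of 24360 gene rows, and their transcripts by source gene, as 51 of 44501 transcript rows. RNA was sequenced from H9c2, a wild-type line of rat embryonic heart origin that its labels call an embryonic cardiomyocyte. There were 3 samples under the treatment label NC, titled Ctrl, and 3 under the label ginsenoside Rb2, a saponin of ginseng, titled Rb2. The protocol, worded alike for both groups, gives 48 h of Rb2, then 4 to 6 h without glucose and oxygen, then 12 h with both returned; whether the Ctrl cells were deprived is not stated. The series title concerns acetylation of the splicing factor SF3A2 and alternative splicing of Fscn1. The question put to the SR genes was whether their RNA, or the share of each of their transcripts, differed between Rb2 and Ctrl.

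SR proteins bind exonic enhancers in pre-mRNA through RNA recognition motifs and recruit the spliceosome through a domain rich in arginine and serine (the RS domain). Kinases of the SRPK and CLK families phosphorylate that domain, which controls where the proteins reside and when they act. Most SR genes also limit their own level: an ultraconserved poison exon or a spliced 3' end brings a premature stop codon into part of their RNA, and nonsense-mediated decay removes it. In the heart, Srsf1, Srsf2 and Srsf10 are each known to be needed for normal development or contraction.

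Total counts per library ran from 5193077 to 8793390, and 3 counts, the most that an observed 0 allows, came to 0.341 to 0.578 CPM before TMM scaling. Limits and intervals cover counting error only. CPM stands for a gene's count relative to its library's total after TMM scaling, and triplets of values follow replicates 1, 2 and 3. Ctrl replicate 1 was the deepest. Leaving out 1 library moved the number of genes called in the whole table from 312 to between 3 (without Rb2 replicate 2) and 896 (without Ctrl replicate 1). The mean transcript length behind a count also differed between groups, at 1172, 1174 and 1228 bases under Ctrl and 1244, 1255 and 1252 bases under Rb2. Among the listed markers, 8 of 10 cardiac ones had a row, and Actc1 was at 0. Tnnt2 was at 52.9 and 45.3 CPM in Ctrl and Rb2, while Myh7, Tnni3 and Myl7 had 1 or 2 counts over all 6 libraries. In the same order, Gata4 was at 6.48 and 6.93 CPM and Nkx2-5 at 2.38 and 4.66 CPM, and Myh6 had 47 counts over all libraries. The skeletal myoblast markers Myod1 (12.4 and 15.8 CPM), Myog (9.72 and 10.2 CPM) and Cdh15 (46.9 and 45.4 CPM) were present, with the first value of each pair from Ctrl and the second from Rb2. Of the other skeletal markers with a row, Des was at 12.2 and 13.1 CPM and Acta1 at 4.28 and 2.74 CPM. Ckm, Myh3, Tnnt1 and Chrna1 had 9, 15, 21 and 32 counts over all 6 libraries. Several defining markers of the labelled cardiomyocyte, and several of the skeletal markers, were thus absent or nearly so. The summed cardiac markers ran from 56.1 to 74.3 CPM in Ctrl and from 54.5 to 63.8 CPM in Rb2, and the skeletal ones from 72.2 to 97.3 and from 87.0 to 90.9 CPM. The leukocyte markers summed to 20.5 to 31.8 CPM in Ctrl and 26.7 to 31.3 CPM in Rb2, most of it Cd14 (26.1 and 27.6 CPM), while Ptprc was at 0. The epithelial markers summed to 32.2 to 41.9 and 33.9 to 39.9 CPM, all of it the keratin gene Krt8 (36.8 and 36.1 CPM), while Epcam and Cdh1 were at 0. The 2 endothelial markers with a row summed to at most 0.178 CPM. The part of these cell type markers in the results was not tested.

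Of the 10 SR genes, Srsf1 rose in Rb2, none fell and 9 did not pass edgeR's quasi-likelihood test with Benjamini-Hochberg adjustment over 11551 genes (adjusted p under 0.05, the call used throughout). All 10 had passed the filter on low counts. Over all genes tested, 1.90% were called higher and 0.805% lower. In 5 of the 10 (Srsf1, Srsf3, Srsf6, Srsf7 and Srsf10) every Rb2 sample was above every Ctrl sample, which was so for 15.0% of all genes tested. An unadjusted p under 0.05 was found in 5 members (Srsf1, Srsf3, Srsf7, Srsf10 and Srsf11), all higher, against 11.8% of all genes higher and 8.17% lower at that level. The log2 fold change was above 0 in 9 of 10 members, against 48.0% of all genes. The sign of the other one, Srsf4, turned with library size scaling and 3 other settings. The median over the members was 0.43, beside -0.02 over all genes. Scaling by library size alone moved the median of all genes from -0.02 to 0.10, and the members lay 0.45 above it either way. In bulk RNA, more RNA per cell and more cells that hold it cannot be told apart.

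**Figure D1:**
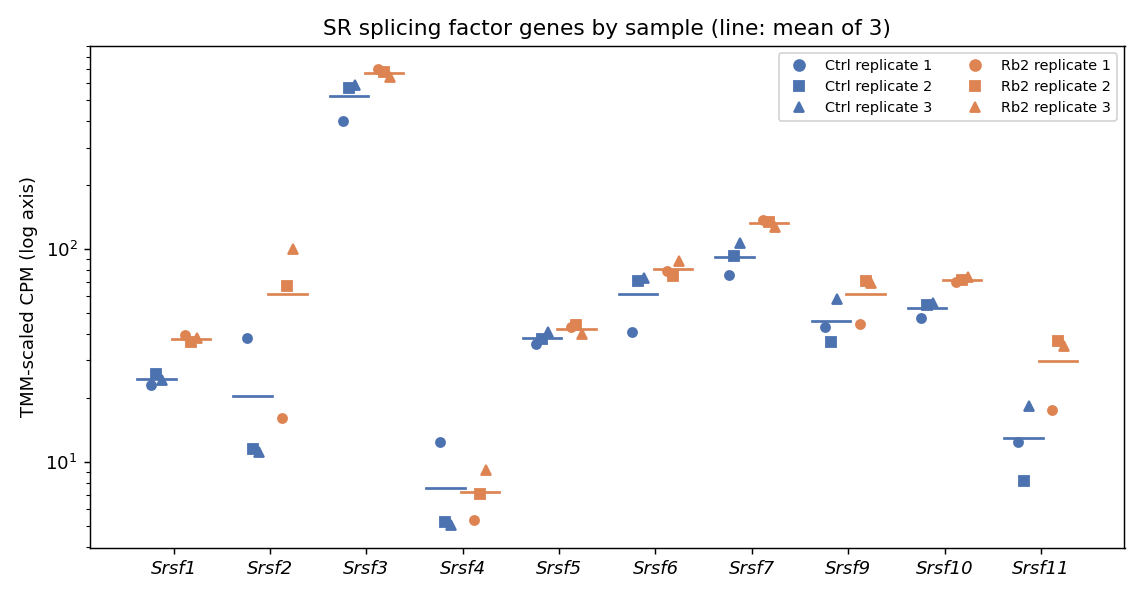
TMM-scaled CPM of each SR gene (log axis) in 3 Ctrl and 3 Rb2 libraries, 1 symbol per library and a line at the mean. Srsf1 separates the groups at 22.9 to 26.0 against 36.6 to 39.3 CPM, whereas Srsf2 spreads widely within both.

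Srsf1, also known as SF2/ASF, was among the first SR proteins described and shuttles between nucleus and cytoplasm. Its CPM was 22.9, 26.0 and 24.3 under Ctrl and 39.3, 36.6 and 38.1 under Rb2. The groups were far apart against their own spread, with means of 24.4 ± 1.55 and 38.0 ± 1.38 CPM (SD, n = 3 each). The edgeR estimate was a log2 fold change of 0.64 with an SE of 0.13 (adjusted p = 0.0423). The call did not survive without any 1 of the 3 Rb2 libraries or Ctrl replicate 2 (edgeR adjusted p = 0.143, 0.198, 0.171 and 0.146), where the fold change stayed between 0.61 and 0.69. With an offset for gene length in each library the fold change was 0.49 (edgeR adjusted p = 0.104). In RefSeq the locus overlaps Vezf1, and whether counting used strand is not stated; Vezf1 was at 6.28 ± 0.87 and 5.77 ± 0.38 CPM (SD, n = 3 each).

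Srsf3, the smallest SR protein and a partner of the mRNA export receptor, was the most abundant member. It took 52.6% to 62.5% of the counts of all 10 genes in the 6 libraries. Its CPM was 400, 572 and 593 in Ctrl and 703, 676 and 646 in Rb2. The groups did not overlap, but Ctrl replicate 1 was low, and the log2 fold change of 0.37 (SE 0.14) was not called (edgeR adjusted p = 0.177). Without that library it was 0.23 and called (adjusted p = 0.0329).

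Srsf7, which carries a zinc knuckle beside its RNA recognition motif, was at 75.6, 93.1 and 107 CPM in Ctrl and at 137, 133 and 127 CPM in Rb2. The lowest Rb2 sample exceeded the highest Ctrl sample (log2 fold change 0.53, SE 0.13), and the edgeR adjusted p of 0.0639 missed the threshold. It passed in 6 of 16 alternatives, among them DESeq2 (adjusted p = 0.0335), library size scaling, no filter and the fit without Ctrl replicate 3. Srsf10, known as a splicing repressor when dephosphorylated by heat shock, was at 47.6, 54.6 and 56.1 CPM in Ctrl and at 69.8, 71.4 and 74.0 CPM in Rb2. Here too the groups were apart and tight (0.44, SE 0.11; edgeR adjusted p = 0.0688). It passed in 4 of 16 alternatives, and with length as an offset its estimate was 0.25.

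Because these 4 genes had groups apart and an unadjusted p under 0.05, their promoters are shown from RefSeq on build GRCr8, from 250 bases before to 50 after the annotated start, 5′ to 3′ on the gene's strand. Of 5 motifs searched on either strand, chosen after the sequences were seen, capitals mark 3. The first is CCAAT. The next is TGACGT, the core of a cyclic AMP response element. The last is TATAAA. All 10 members matched an entry, and first start sites were counted. The cyclic AMP core was found in 5 of the 10 (Srsf1, Srsf3, Srsf5, Srsf6 and Srsf11) and in 7.94% of 33469 promoters of that length. The CCAAT box was found in 4 (Srsf1, Srsf2, Srsf3 and Srsf10) and in 37.5% of all. The last motif was found in 2 (Srsf2 and Srsf3) and in 14.2% of all. The Srsf7 promoter shown held none of the 3. Of the motifs left in lower case, the GC box GGGCGG was found in 8 (all but Srsf1 and Srsf3) and in 33.1% of all, with 4 matches in Srsf7. The other, CCATNTT, was found in 3 (Srsf1, Srsf2 and Srsf5) and in 18.3% of all. For Srsf10 the first of the table's start sites is printed.
Srsf1 promoter (chr10:73336248-73336547, plus strand): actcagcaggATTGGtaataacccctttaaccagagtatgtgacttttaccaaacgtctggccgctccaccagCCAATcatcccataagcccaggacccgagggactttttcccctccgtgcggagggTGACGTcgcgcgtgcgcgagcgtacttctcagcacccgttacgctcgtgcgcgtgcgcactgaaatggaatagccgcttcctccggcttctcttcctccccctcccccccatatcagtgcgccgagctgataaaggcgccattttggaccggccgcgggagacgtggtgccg
Srsf3 promoter (chr20:7093335-7093634, plus strand): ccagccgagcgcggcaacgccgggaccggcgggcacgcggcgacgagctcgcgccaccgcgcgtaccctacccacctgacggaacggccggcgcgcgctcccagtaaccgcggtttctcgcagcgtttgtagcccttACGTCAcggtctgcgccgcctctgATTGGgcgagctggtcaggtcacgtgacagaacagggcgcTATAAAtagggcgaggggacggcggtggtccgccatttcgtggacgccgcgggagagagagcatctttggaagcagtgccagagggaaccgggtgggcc
Srsf7 promoter (chr6:20563802-20564101, plus strand): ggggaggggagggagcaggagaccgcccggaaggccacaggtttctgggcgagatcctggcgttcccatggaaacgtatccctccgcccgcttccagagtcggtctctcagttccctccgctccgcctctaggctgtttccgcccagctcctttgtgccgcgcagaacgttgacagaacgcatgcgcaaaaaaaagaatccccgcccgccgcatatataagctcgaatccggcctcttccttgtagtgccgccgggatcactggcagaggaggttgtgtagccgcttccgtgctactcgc
Srsf10 promoter (chr5:153372066-153372365, plus strand): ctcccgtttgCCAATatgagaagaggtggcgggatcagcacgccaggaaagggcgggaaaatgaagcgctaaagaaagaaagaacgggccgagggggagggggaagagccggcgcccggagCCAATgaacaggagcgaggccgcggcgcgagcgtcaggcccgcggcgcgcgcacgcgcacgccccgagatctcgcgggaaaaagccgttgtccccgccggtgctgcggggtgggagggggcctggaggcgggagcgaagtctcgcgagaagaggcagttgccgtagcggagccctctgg

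Srsf6, like Srsf4 and Srsf5 a member with a pair of RNA recognition motifs, was at 40.6, 70.9 and 73.4 CPM in Ctrl and at 78.7, 75.0 and 88.3 CPM in Rb2. The groups were apart by little, since only Ctrl replicate 1 was far below (log2 fold change 0.39, SE 0.21; edgeR adjusted p = 0.324). Without that library the fold change was 0.18. Srsf5 was at 35.8, 38.0 and 40.9 CPM in Ctrl and at 43.1, 43.8 and 39.9 CPM in Rb2, and the groups overlapped (0.15, SE 0.12). It was the member whose libraries differed least. Srsf4, the lowest member, was at 12.4, 5.24 and 5.07 CPM in Ctrl and at 5.34, 7.11 and 9.20 CPM in Rb2. Ctrl replicate 1 was above all other libraries, and the fold change of -0.10 (SE 0.37) became 0.50 (SE 0.27, edgeR adjusted p = 0.305) without it.

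Srsf2 (SC35), which stays in the nucleus and marks nuclear speckles, had the largest fold change and the widest spread. Its CPM was 38.2, 11.6 and 11.2 in Ctrl and 16.0, 67.4 and 101 in Rb2. Both groups held a library on the other side: Ctrl replicate 1 exceeded Rb2 replicate 1. The log2 fold change of 1.56 (SE 0.82) was not called (edgeR adjusted p = 0.36) and ran from 1.01 to 2.45 over 16 alternatives without a call. Its neighbours Mfsd11 and Mettl23, which lie within 1000 bases of it in RefSeq, did not spread in this way: Mfsd11 was at 23.6 ± 3.03 and 22.7 ± 1.16 CPM and Mettl23 at 3.23 ± 1.55 and 3.57 ± 0.47 CPM (SD, n = 3 each).

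Srsf11, an atypical member that acts with U2AF at the 3' splice site, was at 12.4, 8.13 and 18.3 CPM in Ctrl and at 17.6, 37.1 and 35.1 CPM in Rb2. Rb2 replicate 1 lay within the Ctrl range and the other 2 Rb2 samples well above it (log2 fold change 1.21, SE 0.35; edgeR adjusted p = 0.109; DESeq2 adjusted p = 0.0115). Srsf9, close to Srsf1 in sequence, was at 43.1, 36.7 and 58.0 CPM in Ctrl and at 44.3, 70.5 and 69.4 CPM in Rb2. Again Rb2 replicate 1 was within the Ctrl range (0.42, SE 0.22; edgeR adjusted p = 0.318). In Srsf2, Srsf9 and Srsf11 alike, Rb2 replicates 2 and 3 were the 2 highest of the 6 libraries.

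**Figure D2:**
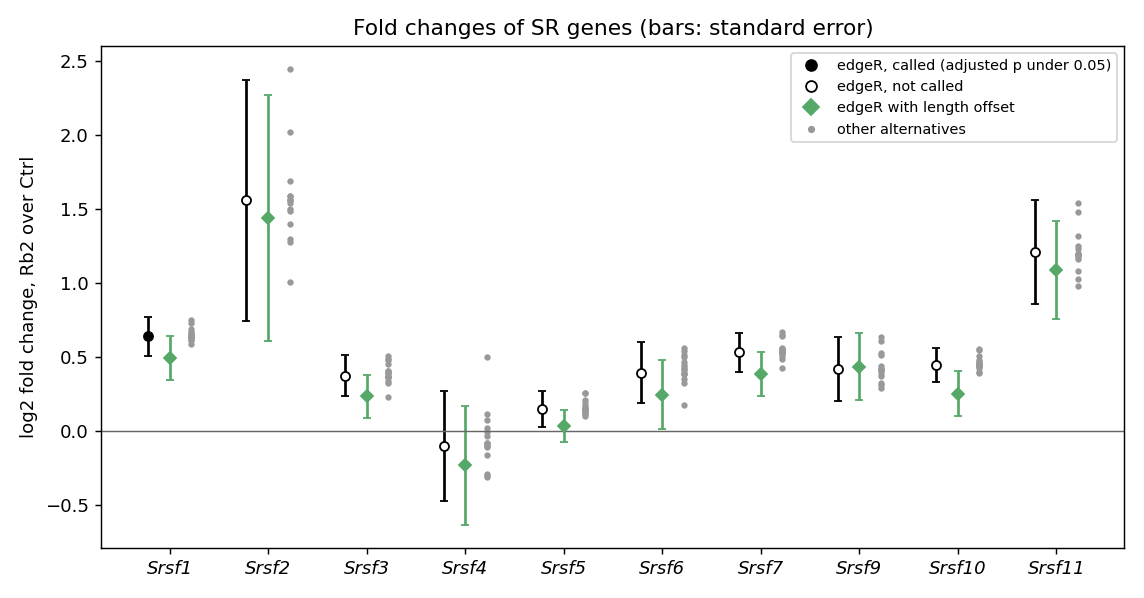
Log2 fold change of Rb2 over Ctrl for each SR gene, from edgeR with its standard error (filled where called), with a length offset, and as points under the other alternatives. Srsf1 alone is filled, at 0.64, and Srsf2 has the widest error, 0.82.

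Summed over the 10 genes, the level was 728, 916 and 987 CPM under Ctrl and 1155, 1218 and 1227 CPM under Rb2, so all Rb2 libraries were higher. Without Srsf3 the sums were 329, 344 and 394 CPM in Ctrl and 451, 542 and 582 CPM in Rb2. Per kilobase of gene length, Srsf3 was highest in Ctrl, at 155 ± 31.4 CPM per kilobase, then Srsf9 (41.9 ± 9.98), Srsf7 (21.0 ± 3.59), Srsf6 (15.9 ± 4.71), Srsf5 (15.7 ± 1.05) and Srsf2 (10.7 ± 8.13; SD, n = 3 each). Srsf10 (7.57 ± 0.65), Srsf1 (4.80 ± 0.30), Srsf11 (4.71 ± 1.86) and Srsf4 (3.43 ± 1.89 CPM per kilobase) followed. Neighbours in this order were separate in all Ctrl libraries for Srsf3 and Srsf9, for Srsf9 and Srsf7 and for Srsf10 and Srsf1 only. Gene length exceeded that of the transcript with the highest mean share in Srsf5 (2438 against 1180 bases), Srsf7 (4377 against 2251) and Srsf10 (6964 against 1839). A division by transcript length would give these genes higher values. If each read stands for a whole RNA molecule, the division by length would not apply, and the read type is unsettled here.

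Gene length moved with the fold change across the whole table. Genes under 1000 bases had a median log2 fold change of -0.18 (3033 genes) and those of 3000 bases or more 0.08 (3368 genes). The members are 1096 to 6964 bases long, with a median of 3064 against 2594 in all known genes tested, and 5 of 10 are in the longest class. These 5 (Srsf1, Srsf3, Srsf6, Srsf7 and Srsf10) are also the 5 members whose groups did not overlap. Whether length lay behind that separation was not tested. Gene length is not transcript length: Srsf3, Srsf7 and Srsf10 have 3375, 4377 and 6964 bases as genes. Their transcripts with the highest mean share have 2884, 2251 and 1839 bases, each under 3000. With the length offset the members' median was 0.32, which is 0.36 above that of all genes, and none was called, where 1.17% of all genes were called higher. Without Ctrl replicate 1, Srsf1, Srsf3, Srsf7 and Srsf10 were called, where 5.08% of all genes were called higher. The members called numbered 3 with DESeq2 (2.71% of all genes higher), 3 with library size scaling (4.01%), 3 with limma on log2(CPM + 1) (4.45%), 3 without Ctrl replicate 3 (3.60%) and 2 with no filter (1.69%).

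Of the 51 transcripts, 11 were annotated and 40 were new models of the submitters' own assembly; 43 had a count and 28 passed the filter. None of the 28 was called by edgeR, as none of the 16679 transcripts tested (0.00%). At an unadjusted p under 0.05, 10 of the 28 were higher and none lower in Rb2, against 7.70% of all transcripts tested being higher at that level. DESeq2 called 1.86% of all transcripts and 2 of the members', the single transcript of Srsf1 (ENSRNOT00000073005, edgeR log2 fold change 0.63, SE 0.12, adjusted p = 0.147) and the Srsf10 model ONT.13863.13. Srsf1, Srsf4 and Srsf9 had 1 transcript row each, so no share could be formed for them.

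Transcript usage was tested with diffSpliceDGE in the 6 SR genes that kept several transcripts after filtering (Srsf2, Srsf3, Srsf5, Srsf7, Srsf10 and Srsf11). None was called, and none had an unadjusted p under 0.05, which does not show that usage was the same; over all 3361 genes, 0.417% were called and 3.36% had such a p. Per gene, the F test in place of Simes gave Srsf3 an unadjusted p under 0.05, and limma's diffSplice gave one to Srsf3 and Srsf10. With diffSpliceDGE, Srsf10 had such a p with equal-length transcripts of a gene summed, and Srsf7 with no filter. Srsf7 also had it without Ctrl replicate 1, without Rb2 replicate 2 and without Rb2 replicate 3. Srsf10 had it without Rb2 replicate 2. Of 25 shares in genes with several transcripts, 5 were fully separated between groups, against 12.3% of 12055 such shares over all genes. With 3 samples against 3 the exact two-sided permutation p of a share cannot go below 0.1.

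A pair of the separated shares belonged to Srsf3, whose poison exon is a textbook case of SR autoregulation. Its major annotated transcript, ENSRNOT00000000627 (2884 bases), took 94.5%, 94.0% and 94.7% of the gene's counts in Ctrl and 96.5%, 96.2% and 96.8% in Rb2. The other annotated transcript, ENSRNOT00000092663 (1917 bases), took 5.50%, 6.03% and 5.27% in Ctrl and 3.49%, 3.72% and 3.16% in Rb2. All Rb2 shares were below all Ctrl shares, with means of 5.60% ± 0.39 and 3.46% ± 0.28 (SD, n = 3 each; exact permutation p = 0.1). The 95% Wilson interval of the lowest Ctrl share was 4.57% to 6.08% and that of the highest Rb2 share 3.17% to 4.36%. In raw counts, from libraries of unequal depth, this transcript went from 181, 191 and 179 to 138, 145 and 111, while the major one was higher. After TMM scaling its mean was 29.5 CPM in Ctrl and 23.5 CPM in Rb2. As a transcript it was not called (log2 fold change -0.33, SE 0.20, edgeR adjusted p = 0.507). Relative to the gene as a whole its change in natural-log units was -0.48 (diffSpliceDGE unadjusted p = 0.0700). With an offset for transcript length it was -0.53 (diffSpliceDGE unadjusted p = 0.0426). Neither passed adjustment. The files give no exon structure, so whether this transcript carries the poison exon was not tested.

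**Figure D3:**
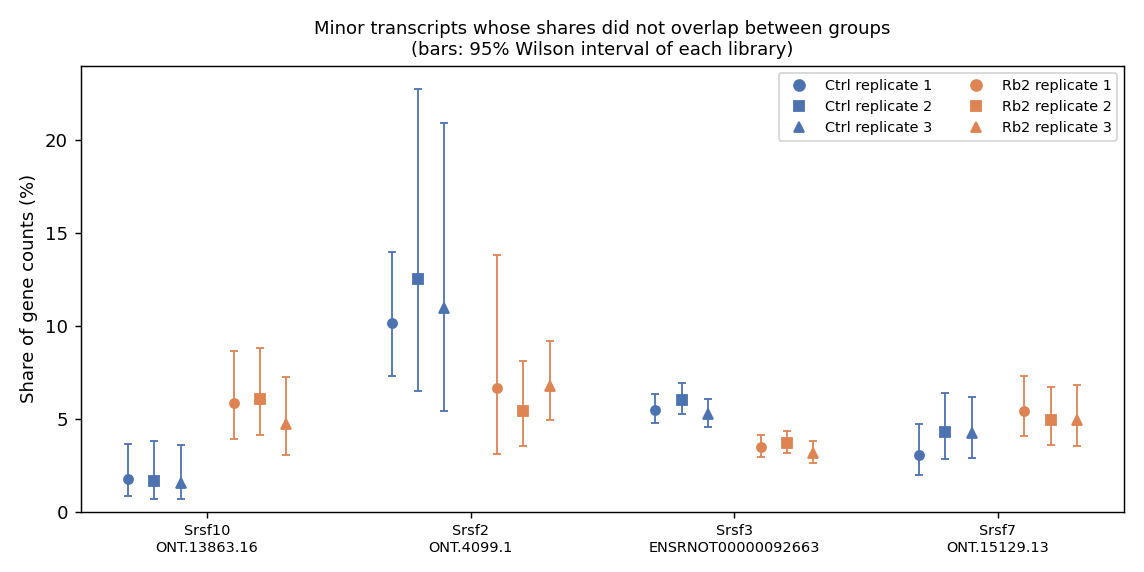
Share of the gene's counts (%) held by 4 minor transcripts in each library, with 95% Wilson intervals. The Srsf3 transcript is lower in all Rb2 libraries (3.16% to 3.72%) than in Ctrl (5.27% to 6.03%), and the Srsf10 model is higher (4.73% to 6.07% against 1.56% to 1.79%).

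Srsf10 was spread over 8 tested models, none above 43.4% of its counts in any library. The new model ONT.13863.16 (3385 bases), its longest, had 7, 5 and 5 counts in Ctrl and 23, 25 and 19 in Rb2. Its share was 1.79%, 1.66% and 1.56% in Ctrl and 5.87%, 6.07% and 4.73% in Rb2, apart in every library. As a transcript its log2 fold change was 2.15 (SE 0.28), with the smallest p of the members' transcripts (edgeR adjusted p = 0.0842). Relative to the gene as a whole its change in natural-log units was 1.18 (diffSpliceDGE unadjusted p = 0.0290), which did not pass adjustment. The counts behind it are few, and the Wilson interval of the highest Ctrl share, 0.87% to 3.64%, overlapped that of the lowest Rb2 share, 3.05% to 7.26%. Among the abundant models, ONT.13863.14 (1839 bases) was at 16.8%, 43.4% and 34.6% in Ctrl and 35.7%, 32.8% and 35.1% in Rb2. ONT.13863.6 (852 bases) was at 38.5%, 14.6% and 18.7% in Ctrl and 12.5%, 14.3% and 16.2% in Rb2. In both, Ctrl replicate 1 was far from the other 5 libraries and the groups otherwise overlapped. ONT.13863.2 (920 bases) was at 8.67%, 6.62% and 5.30% in Ctrl and 7.14%, 8.98% and 9.20% in Rb2, with overlapping groups; as a transcript its log2 fold change was 0.75 (edgeR unadjusted p = 0.0225, adjusted p = 0.279).

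The Srsf10 models ONT.13863.12 and ONT.13863.13 have the same length, 2659 bases. Their counts were equal in 4 libraries (33, 30, 42 and 53 each, in Ctrl replicates 1 to 3 and Rb2 replicate 2). In Rb2 replicates 1 and 3 the first was at 0 and the second at 104 and 92. The pair together had 66, 60 and 84 counts in Ctrl and 104, 106 and 92 in Rb2, a share of 21.0% ± 4.76 and 25.1% ± 1.92 (SD, n = 3 each; exact two-sided permutation p = 0.3). ONT.13863.13 alone had a log2 fold change of 1.41 (edgeR unadjusted p = 0.00518). Without Rb2 replicate 2 the usage of Srsf10 was called (diffSpliceDGE adjusted p = 1.67e-05), with ONT.13863.12 then at 0 in every remaining Rb2 library. That fit called 17 of 3678 genes. With equal-length models of a gene summed and all libraries kept, Srsf10 was not called, though its unadjusted p was under 0.05 (diffSpliceDGE).

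Srsf7 was carried by the new model ONT.15129.2 (2251 bases), at 66.0%, 67.4% and 74.8% in Ctrl and 75.5%, 71.4% and 74.7% in Rb2, and its groups overlapped. Of its other tested models, ONT.15129.13 (1931 bases) was at 3.05%, 4.27% and 4.25% in Ctrl and 5.45%, 4.94% and 4.92% in Rb2, apart by less than the width of its Wilson intervals. ONT.15129.9 (1517 bases) was at 10.1%, 3.50% and 4.25% in Ctrl, on 63, 18 and 26 counts, and had 54, 59 and 63 counts in Rb2. As transcripts, ONT.15129.2, ONT.15129.9, ONT.15129.13 and ONT.15129.4 had log2 fold changes of 0.61, 1.00, 0.91 and 0.75 and unadjusted p-values under 0.05, all higher in Rb2.

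**Figure D4:**
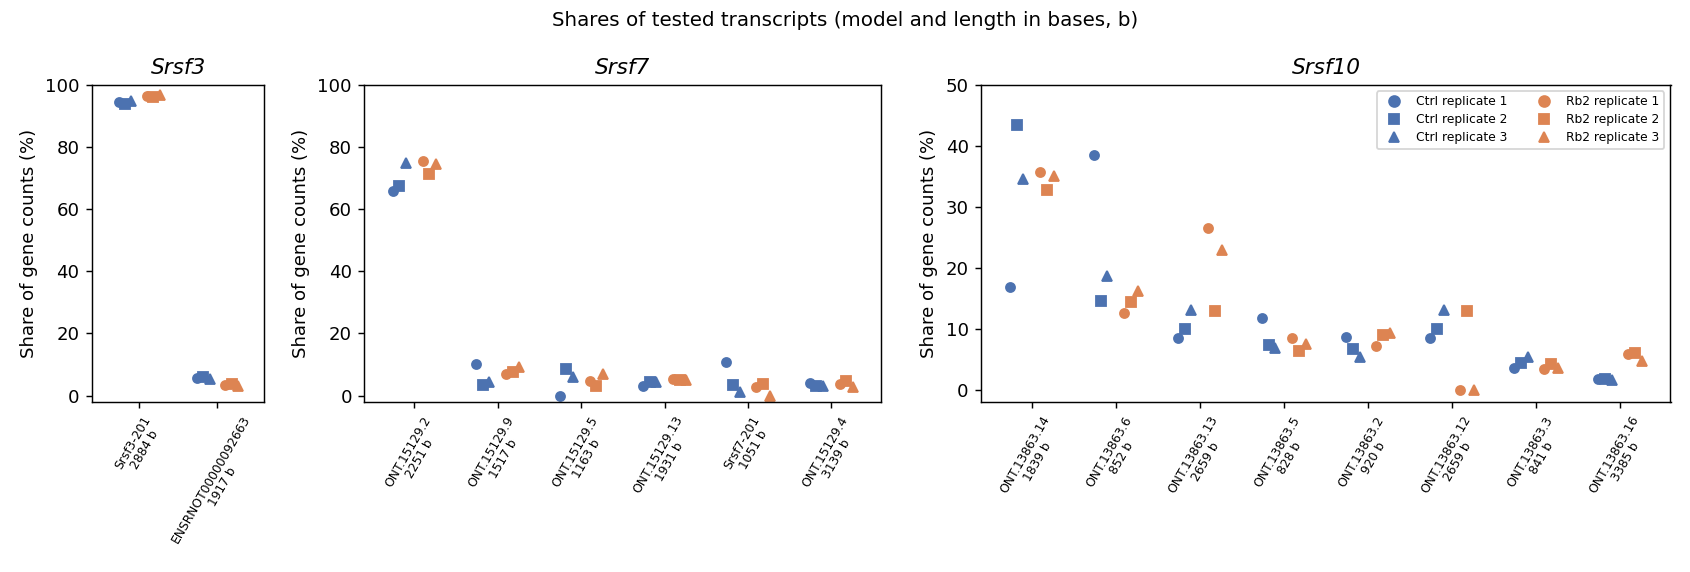
Share of the gene's counts (%) for every tested transcript of Srsf3, Srsf7 and Srsf10 in 3 Ctrl and 3 Rb2 libraries, with lengths in bases (b). Srsf3 rests on 1 transcript, Srsf7 on ONT.15129.2, and Srsf10 is divided among 8 models, with ONT.13863.12 at 0 in 2 Rb2 libraries.

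In Srsf2 the annotated transcript took 87.9%, 87.5% and 89.1% in Ctrl and 71.1%, 94.3% and 93.0% in Rb2. The model ONT.4099.1 (1394 bases) took 10.2%, 12.5% and 10.9% in Ctrl and 6.67%, 5.40% and 6.76% in Rb2, apart in all libraries on 6 to 37 counts each. Rb2 replicate 1, with the lowest Srsf2 level of its group, had 20 counts of ONT.4099.2 where every other library had 0 to 6. In Srsf11 the annotated transcript took 61.2% to 80.8% of the counts and the groups overlapped, while ONT.10435.2 took 37.3% in Ctrl replicate 1 and at most 17.3% in any other library. ONT.10435.5 (1244 bases) had 0 counts in Ctrl replicate 1, 10 and 16 in the other Ctrl samples, and 4, 35 and 33 in Rb2. As a transcript, the annotated one had a log2 fold change of 1.12 (edgeR unadjusted p = 0.0201, adjusted p = 0.266). The annotated transcript took 72.3% to 81.1% of Srsf5, ONT.14957.3 took 10.7% to 20.95% and ONT.14957.9 took 0.952% to 7.85%. That of Srsf6 took 93.1% to 97.9% of Srsf6, also with overlapping groups.

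Shares moved with length as well. Over 3353 genes, the longer of the pair of most abundant transcripts had the higher fold change in 56.5%. The Srsf3 pair lies on that side. The longest Srsf10 model, ONT.13863.16, had a mean share of 3.61% and was not of the most abundant pair of its gene. With the length offset the relative change of ONT.13863.16, in natural-log units, was 1.08 in place of 1.18. That of the shorter Srsf3 transcript ENSRNOT00000092663 was -0.53 in place of -0.48.

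Among 20 tested genes of other RS-domain proteins, Son and Rbm39 rose, no gene fell and 18 did not pass (median log2 fold change 0.28). An unadjusted p under 0.05 was found in 10 of the 20, all higher. Over all genes tested, 1.90% were called higher, and at that unadjusted p 11.8% were higher and 8.17% lower. Son, a large scaffold of nuclear speckles, was at 16.6, 18.6 and 18.9 CPM in Ctrl and 32.2, 33.6 and 32.6 CPM in Rb2 (log2 fold change 0.86, SE 0.14, edgeR adjusted p = 0.0232). Rbm39, a U2AF-like coactivator of splicing, was at 40.6, 39.6 and 41.2 CPM in Ctrl and 57.3, 61.4 and 66.8 CPM in Rb2 (0.61, SE 0.12, edgeR adjusted p = 0.0362). Both groups of samples were well apart in both genes, and neither call held under the length offset, with the replicate number as a block, or without Ctrl replicate 2 or any 1 of the 3 Rb2 libraries. The list had more calls, all higher, elsewhere: 7 without Ctrl replicate 1 (5.08% of all genes higher) and 7 with limma on log2(CPM + 1) (4.45%). Library size scaling gave 6 (4.01%) and no filter 4 (1.69%). None of 11 SR protein kinase and phosphatase genes was called by edgeR (median 0.27). An unadjusted p under 0.05 was found in 3, all with higher values in Rb2 and named after these were seen. They were the SRPK kinase Srpk2 (16.5 ± 1.77 and 22.9 ± 1.14 CPM), the kinase Prpf4b (6.15 ± 1.25 and 11.3 ± 0.76 CPM) and the phosphatase subunit Ppp1cb (18.4 ± 8.32 and 36.7 ± 4.03 CPM; SD, n = 3 each). The most abundant of the list were the phosphatase Ppp1ca, at 550 ± 43.0 and 510 ± 20.1 CPM, and the CLK kinase Clk2, at 79.6 ± 8.66 and 80.6 ± 1.19 CPM. DESeq2, library size scaling, limma on log2(CPM + 1) and no filter each called 1 of the list higher. Without Ctrl replicate 1 edgeR called 2 higher and 1 lower, where 896 of 11901 genes were called in either direction.

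**Figure D5:**
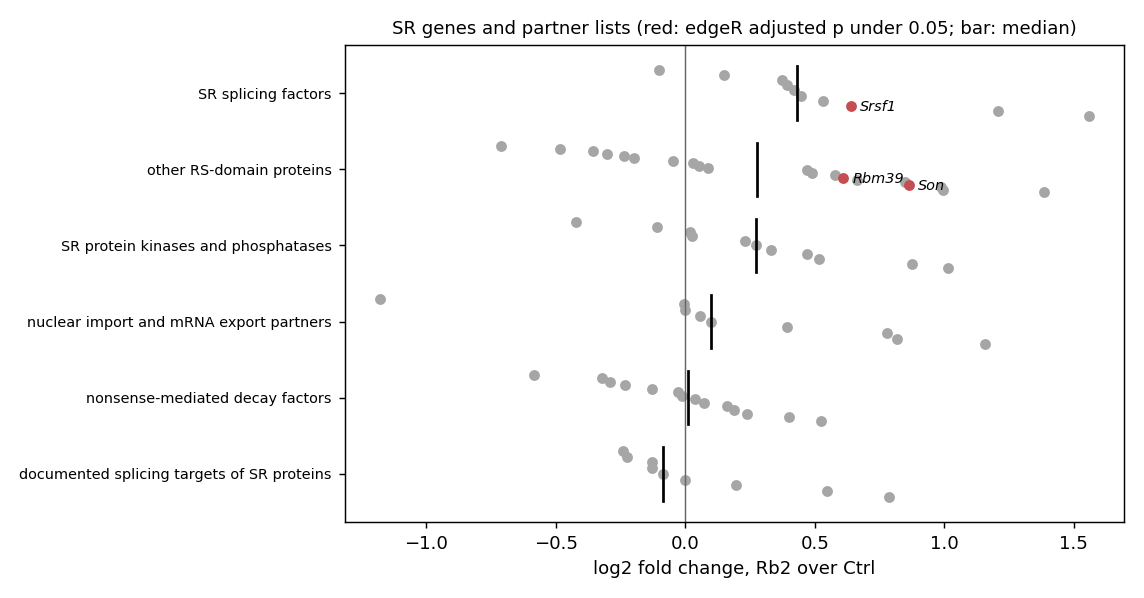
Log2 fold change of Rb2 over Ctrl for tested SR genes and 5 partner lists, 1 point per gene, red where called, with the median as a bar. Medians run from 0.43 in the SR genes to -0.09 in their documented splicing targets.

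None of 14 nonsense-mediated decay factors and none of 9 import and export partners was called by edgeR, with medians of 0.01 and 0.10. At an unadjusted p under 0.05, 11.8% of all genes were higher and 8.17% lower. Such a p was found in 2 decay factors, both with lower values in Rb2 (Upf3a, log2 fold change -0.32, and Smg5, -0.58). It was found in 3 import and export partners, all with higher values (Tnpo1, 0.82, Thoc1, 1.16, and Zc3h14, 0.78); these 5 genes were named after their values were seen. Of the decay factors, 1 was called lower with the length offset (249 of 11551 genes called in either direction) and without Ctrl replicate 3 (644 of 12022). DESeq2 called 0 of these factors. Of the partners, 2 were called higher with library size scaling (4.01% of all genes higher), with limma on log2(CPM + 1) (4.45%) and with no filter (1.69%). As many were called without Ctrl replicate 1 (5.08%) or 3 (3.60%), and DESeq2 called 1 (2.71%). The exon junction proteins Rbm8a (206 ± 16.3 and 204 ± 11.8 CPM) and Eif4a3 (185 ± 34.1 and 182 ± 10.5 CPM) were the most abundant of the first list, and Ddx39b (262 ± 52.8 and 272 ± 12.6 CPM) and Nxt1 (88.4 ± 7.19 and 88.1 ± 4.81 CPM), both of the mRNA export machinery, of the second. None of 9 documented splicing targets of SR proteins was called by edgeR or DESeq2 (median -0.09). Without Ctrl replicate 1, where 896 of 11901 genes were called in either direction, 1 of these targets was called lower. The most abundant were the glycolytic gene Pkm (3621 ± 210.1 and 3068 ± 218 CPM, log2 fold change -0.24, edgeR unadjusted p = 0.0154) and the fibronectin gene Fn1 (196 ± 43.0 and 196 ± 11.3 CPM). Rps6kb1, the only other with an unadjusted p under 0.05, had a log2 fold change of 0.79. In this list, none of the 6 with a usage test had called usage. Tnnt2, a cardiac troponin gene whose exon choice depends on SR proteins, had the lowest usage p of them (unadjusted p = 0.00283, adjusted p = 0.352).

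The 5 known genes whose profile over the 6 libraries lay closest to the mean profile of the members, out of 5050 compared, were Hnrnpm, Becn1, Fam92a, Rbm39 and Elavl1. The measure was the root-mean-square difference of centred log2 values, which was 0.07 for Hnrnpm and 0.10 to 0.11 for the others. In such values the mean profile was -0.007, 0.377 and 0.464 in Rb2 replicates 1, 2 and 3. Srsf1, Srsf3 and Srsf7, by contrast, were highest in Rb2 replicate 1, so the mean profile does not stand for each member. Hnrnpm, an hnRNP protein, was at 63.6 ± 6.27 and 88.5 ± 11.6 CPM (SD, n = 3 each; log2 fold change 0.47, edgeR adjusted p = 0.0866). Elavl1, which encodes the RNA-binding protein HuR, had a log2 fold change of 0.38.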

How the data were processed

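Counts per gene and per transcript, whole numbers as deposited by the authors, were the basis of all tests. The deposited CPM tables equal those counts over the column total with no length scaling, and served only as an alternative. The submitters' processing notes list HISAT2, DESeq2 and mm10 without saying what each did; known genes carry rat identifiers. For counter, strand setting and annotation, nothing is stated per the labels' protocols. Another 18 columns per file, for samples outside the 6, were left unused.

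The fit used edgeR 4.0.16 in R 4.3.3 with TMM factors, filterByExpr, a robust quasi-likelihood fit and 1 term for group, over the whole table, and diffSpliceDGE for transcript usage. Standard errors derive from the F statistic of each fold change. Shares are a transcript's count over the sum of its gene's transcripts, which equalled the gene count in all 10 genes. Shares were compared by exact permutation, with Wilson intervals from scipy 1.17.1. Alternatives used DESeq2 1.42.0 and limma 3.58.1, other scalings and filters, a length offset per library (loess, span 0.5, on log2 length), the replicate number as a block, and each library left out. The fits were tested on simulated data. Libraries differed by more than sampling noise. Whether replicates came from separate cultures is not stated; the p-values then reflect only how these 6 samples vary, possibly for technical reasons.

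The members, the 5 partner lists (77 different genes) and the markers were chosen with earlier results of these data known. All members were to be named, with tested transcripts that were among the 3 largest shares or had an unadjusted p under 0.05, all called list genes or otherwise the 2 most abundant, and the 5 genes of closest profile (at least 10 CPM, log2 of CPM plus 1). Genes without a row were not analysed here. Nearby genes come from RefSeq (GRCr8).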

Additional observations from a re-analysis of the deposited data

How the results depend on the processing

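The number of SR genes called higher, 1 with all samples, was 3 with DESeq2, with library size only and with limma on log2(CPM + 1), 2 with no filter, and 0 with upper-quartile factors and with the length offset. Leaving out 1 library gave 0 to 4: 4 without Ctrl replicate 1, 3 without Ctrl replicate 3, and 0 without Ctrl replicate 2 or any 1 of the Rb2 libraries. No SR gene was called lower in any of the 16 alternatives. With the replicate number as a block, 0 SR genes were called, and 33 genes in all against 312. Same-numbered samples did not deviate together (correlations of -0.07, -0.06 and -0.01). With 3 samples per group, such correlations cannot tell whether same-numbered samples were prepared together. DESeq2 called 2 SR transcripts where edgeR called 0. Usage was called in 0 to 1 SR genes when a library was left out, Srsf7 without Ctrl replicate 1 and Srsf10 without Rb2 replicate 2. Over all genes, usage was called in 27 of 3615 and 17 of 3678 in these fits, in the same order. The fold change of Srsf4 turned to 0.0207 with library size only and 0.116 with limma, and ran from -0.308 to 0.50 with 1 library left out, above 0 without Ctrl replicate 1 (0.50) and Rb2 replicate 1 (0.0773); the other 9 stayed above 0 in all 16 alternatives. The length offset on transcripts and the summing of equal-length models were chosen after seeing the data. Except for the construction of each setting, the cause of these changes was not tested. Minor transcripts with under 40 counts per library limit what the shares can show.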

Other observations

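Several minor Srsf7 models, named here after their values were seen, alternated between libraries. In triplets for replicates 1, 2 and 3, the annotated transcript ENSRNOT00000038448 had 68, 18 and 6 counts under Ctrl and 20, 29 and 0 under Rb2. ONT.15129.5 had 0, 44 and 36 counts in Ctrl and 35, 23 and 48 in Rb2. ONT.15129.17 had 31 counts in Ctrl replicate 1, 26 in Rb2 replicate 2 and 0 in the other 4 libraries. ONT.15129.12 had 43 and 34 counts in Ctrl replicates 2 and 3 and 0 in all other libraries, where a count of 0 allows a share of up to 0.434% in the Rb2 library with the fewest Srsf7 counts. Without Ctrl replicate 1, where that model was also at 0, the usage of Srsf7 was called (diffSpliceDGE adjusted p = 0.000924), and with all libraries it was not (adjusted p = 1.00). The fit without Ctrl replicate 1 called usage in 27 of 3615 genes.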
